A study of Mus musculus with 4 samples.

Results

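The genes described here are 10 markers of differentiated cell types of the mouse placenta, taken from a list of gene names rather than by a threshold on their values: Hand1, Prl3d1, Prl2c2 and Ctsq for trophoblast giant cells, Tpbpa for the spongiotrophoblast, and Gcm1, Syna, Esx1, Pparg and Ovol2 for the labyrinth and its syncytiotrophoblast. All 10 were found among the 37620 genes with counts, and 8 of them reached 1 CPM (counts relative to the normalized library size, in the usual unit) in at least 1 of the 4 samples. RNA-seq was read here in 4 samples with 1 sample per condition, so no difference given here has a replicate check and no p-value is given. The paper describes further RNA-seq samples of some of these conditions, and replicate qRT-PCR that included Hand1. Those were not read here. Intervals are exact 95% intervals of the counts and cover counting error only.

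The study asked how mouse embryonic stem cells (mESCs) exit pluripotency toward a trophoblast-like state when signals in the medium change. The R1 mESC line was grown for 2 days, without feeder cells and with serum, in 3 media that all held CHIR99021 (3 µM, an inhibitor of the kinase GSK3) and PD0325901 (1 µM, an inhibitor of the kinase MEK) and lacked added LIF. The sample labelled 2i, called 2i−L here, received nothing more. 2i-Jaki (2iJ) also received a JAK inhibitor (2 µM), and 2i-Jaki-BMP-Alk5i (2iJ+B−A) received that inhibitor together with BMP4 (10 ng/ml) and the ALK5 inhibitor II (10 µM), which blocks signaling by Activin and Nodal. The sample labelled TSC held trophoblast stem cells of the F4 line, and its label also gives day 2, whereas the methods define no time in culture for it. The TSCs are another line as well as another cell type, and the paper cultured them by a separate, earlier protocol. Line, cell type and medium therefore cannot be told apart. These are bulk RNA samples, in which fewer cells of a type cannot be told apart from less RNA per cell.

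The placenta arises from trophoblast stem cells of the early embryo, which give rise to the layers that meet the maternal tissue. Giant cells invade the uterus and secrete hormones of the prolactin family, and the spongiotrophoblast forms a middle layer. The labyrinth, which holds fused syncytial cells, carries out exchange. Each step depends on a few transcription factors, among them Hand1 for giant cells and Gcm1 for the syncytium, and ends with effector genes such as placental lactogens, cathepsins and the envelope-derived fusion proteins called syncytins.

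The sequence before the transcription start is printed for the 3 labyrinth genes that were at least 4-fold higher in 2iJ+B−A than in 2iJ, and for Syna, which was not, so that the control regions of genes with different responses can be read side by side. Promoters were in RefSeq's table (GRCm38.p6) for 8 of the 10 genes, with 10 start sites in all, and each 250-base stretch was located by an exact match in NCBIM37, the build of the deposited counts. Capitals mark matches, on either strand, to GGCGCC (a GC-rich element bound by BMP-responsive SMADs), CAGAC (the SMAD box) and GCCNNNGGC (the AP-2 motif), and each sequence ends at the base before the start. The RefSeq start of Esx1 lies within the gene as annotated in NCBIM37.
Gcm1, chr9:77899515-77899764, plus strand: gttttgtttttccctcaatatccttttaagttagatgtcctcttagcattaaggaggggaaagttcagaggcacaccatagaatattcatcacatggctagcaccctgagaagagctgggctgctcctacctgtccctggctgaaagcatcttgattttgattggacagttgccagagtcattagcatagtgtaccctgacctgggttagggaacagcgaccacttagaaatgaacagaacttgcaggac
Esx1, chrX:133654866-133655115, minus strand: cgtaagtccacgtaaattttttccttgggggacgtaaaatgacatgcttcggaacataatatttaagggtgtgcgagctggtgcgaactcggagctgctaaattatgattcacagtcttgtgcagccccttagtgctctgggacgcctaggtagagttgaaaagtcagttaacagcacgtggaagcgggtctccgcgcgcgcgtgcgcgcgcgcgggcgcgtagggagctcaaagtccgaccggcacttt
Pparg, first of 3 start sites, chr6:115310912-115311161, plus strand: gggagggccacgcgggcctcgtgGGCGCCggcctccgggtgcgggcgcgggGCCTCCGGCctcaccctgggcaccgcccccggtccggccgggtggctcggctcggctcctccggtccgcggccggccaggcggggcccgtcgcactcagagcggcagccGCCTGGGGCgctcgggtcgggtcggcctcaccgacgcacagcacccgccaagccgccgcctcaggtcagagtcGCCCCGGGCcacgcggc
Syna, chr5:135036042-135036291, minus strand: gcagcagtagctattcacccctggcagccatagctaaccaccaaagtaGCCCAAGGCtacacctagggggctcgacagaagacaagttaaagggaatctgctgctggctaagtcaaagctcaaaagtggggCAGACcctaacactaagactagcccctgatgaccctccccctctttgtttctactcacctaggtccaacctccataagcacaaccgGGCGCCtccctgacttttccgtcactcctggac

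The Gcm1 and Esx1 stretches held none of these motifs, nor the GATA motif, spelled AGATAA, nor the TEAD motif, spelled GGAATG. In the first Pparg promoter, of which 82.4% is G or C, GGCGCC began 227 bases before the start, and AP-2 matches began 199, 90 and 17 bases before it. The second Pparg promoter held none of these motifs. The third, of which 40.8% is G or C, held only CAGAC, 203 bases before its start. Which Pparg start was used in each sample was not tested. In the Syna promoter GGCGCC began 33 bases, CAGAC 119 bases and the AP-2 motif 202 bases before the start. Of 32851 promoters of the same length, 9.59% held GGCGCC, 42.2% CAGAC, 13.7% the AP-2 motif, 9.99% the GATA motif and 12.6% the TEAD motif. These matches describe letters in a window, and their absence says nothing about binding elsewhere.

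A second set of sequences bears on what could be counted. Prl2c2 has near-identical neighbours on chromosome 13, and its coding sequence differs from that of Prl2c3 at 3 of 675 aligned bases (99.6% identity). The first 90 coding bases of both are printed to show how little separates them, with the only differing base in capitals.
Prl2c2, gene at chr13:13088393-13097659, minus strand: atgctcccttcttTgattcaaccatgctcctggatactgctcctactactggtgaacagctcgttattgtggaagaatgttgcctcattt
Prl2c3, gene at chr13:12883089-12892345: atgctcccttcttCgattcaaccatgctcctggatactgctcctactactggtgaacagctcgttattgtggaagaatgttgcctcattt

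The longest stretch without a difference between them was 356 bases, while each read had 126 bases, and only read pairs that mapped to 1 place were counted. The count of Prl2c2 is therefore uncertain on its own and is also given summed with its copies. The transcript of Prl3d1 likewise matched other places on chromosome 13 over its whole length at 95% identity or more, and its coding sequence was 97.9% identical to Prl3d2 and 98.2% to Prl3d3. Of the Tpbpa transcript 5.5% matched elsewhere, and of the other 7 transcripts 0%.

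The libraries were alike in depth, with 33913984 to 36964392 counts on genes, and 3 counts, the smallest signal called detected, corresponded to 0.0799 to 0.0902 CPM. The labelled identities were read from marker lists. The 10 pluripotency markers summed to 5115, 4516 and 3031 CPM over the mESC samples (2i−L, 2iJ, 2iJ+B−A) and to 317 CPM in TSCs, with Pou5f1 (encoding OCT4) at 899, 885, 658 and 1.34 CPM. Elf5, a transcription factor of trophoblast stem cells, was at 298 CPM in TSCs and at 5 counts or fewer in each mESC sample, and Eomes was at 179 CPM in TSCs against 12.4, 10.7 and 2.74 CPM in the mESC samples.

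Summed over the 10 placental lineage genes, 2i−L held 8.87 CPM, 2iJ 13.4 CPM, 2iJ+B−A 218 CPM and the TSCs 418 CPM. In the 3 mESC samples the same 6 genes (Hand1, Gcm1, Syna, Esx1, Pparg and Ovol2) were detected, and the other 4, Prl3d1, Prl2c2, Ctsq and Tpbpa, had 0 counts. In TSCs all 10 reached 3 counts. For comparison, between 44.5% and 47.9% of all genes reached 3 counts in a sample. The signal that appeared in 2iJ+B−A thus came mostly from 4 transcription factor genes, Hand1, Esx1, Gcm1 and Pparg, while all 4 genes at 0 encode secreted or lysosomal products.

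**Figure D1:**
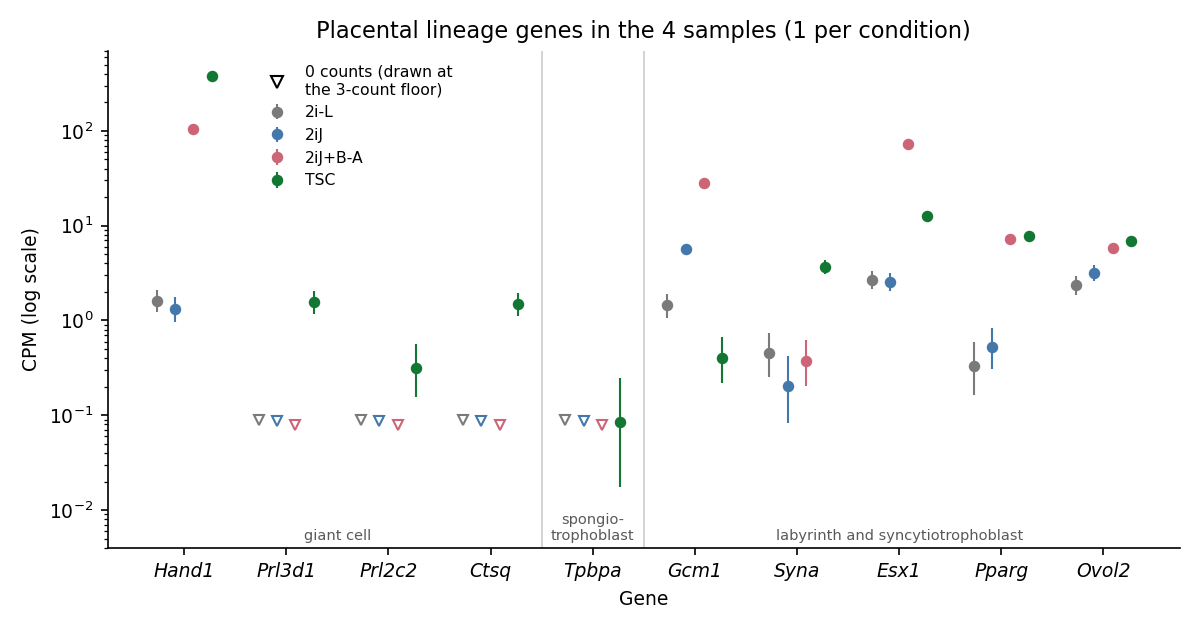
Levels of the 10 placental lineage genes in CPM (log axis) in each of the 4 samples, with exact 95% Poisson intervals as bars (counting error only) and open triangles at the 3-count floor where the count was 0. Hand1, Esx1, Gcm1 and Pparg stand higher in 2iJ+B−A than in both other mESC samples, whereas Prl3d1, Prl2c2, Ctsq and Tpbpa have counts in TSCs only.

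The main comparison, 2iJ+B−A against 2iJ, asks what BMP4 and the ALK5 inhibitor did together in the same medium. A gene was called when the log2 ratio of CPM + 0.5 was at least 1 in size, that is past 2-fold, among the 14263 genes with at least 1 CPM in a sample. In 2iJ+B−A, 4 of the 10 genes were higher and 0 were lower, where 5.81% of all genes were higher and 3.17% lower. The same 4 were past 4-fold, as were 0.989% of all genes. The median log2 ratio was 0.54 over the 10 genes, of which 4 had 0 counts in both samples and so a ratio of 0 by construction, and 0.00 over all genes. Pparg passed the filter through 2iJ+B−A and TSCs, and Prl3d1, Ctsq and Syna through TSCs alone, so these had to be higher there, and Tpbpa and Prl2c2 did not pass it.

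Among the giant cell genes, Hand1 (ENSMUSG00000037335, chr11:57642207-57646320), a basic helix-loop-helix (bHLH) transcription factor needed for giant cell differentiation and also expressed in extraembryonic mesoderm and heart, had 54 counts in 2i−L and 45 in 2iJ. It had 3889 in 2iJ+B−A and 13440 in TSCs. Over the 4 samples in that order, these are 1.62, 1.31, 104 and 383 CPM. The levels in 2i−L and 2iJ could not be separated (2iJ over 2i−L 0.807-fold, interval 0.531 to 1.22), and both lay far below the other samples. Hand1 was 79.0-fold higher in 2iJ+B−A than in 2iJ (interval 58.9 to 109), which ranked 1 of 14263 genes by log2 ratio. The TSC level was a further 3.70-fold above that of 2iJ+B−A (interval 3.57 to 3.83), and Hand1 ranked 5 in TSC against 2iJ.

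The hormone and protease genes of giant cells did not share this pattern. Prl3d1 (ENSMUSG00000057170, chr13:27186081-27192124), which encodes placental lactogen I, had 0 counts in each mESC sample and 55 in TSCs (1.57 CPM, interval 1.18 to 2.04). The TSC value was 19.6-fold that of 2iJ+B−A when the latter was set at the 3-count floor. Ctsq (ENSMUSG00000021439, chr13:61136388-61141992) encodes a cathepsin-family protease of the giant cells that line labyrinth sinusoids. It had 0 counts in each mESC sample and 52 in TSCs (1.48 CPM), 18.5-fold higher on the same basis. Prl2c2 (ENSMUSG00000079092), which encodes proliferin, had 0, 0, 0 and 11 counts (0.313 CPM in TSCs, interval 0.156 to 0.561), 3.92-fold the floor. These folds set the observed TSC value against the 3-count floor of 2iJ+B−A (0.0799 CPM). They leave out the counting error of the TSC count, so they are not lower limits of an interval. The exact 95% upper limit of 0 counts in 2iJ+B−A was 0.0982 CPM, above that floor.

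Of the copies and relatives of these genes, 4 (Prl2c3, Prl2c5, Ctsj and Ctsr) had clear counts in TSCs and at most 1 in a mESC sample. Prl2c3 had 75 counts in TSCs and 0 in every mESC sample, and Prl2c5 had 38 in TSCs and 1 in 2iJ. Summed, the 3 Prl2c genes had 124 counts in TSCs (3.53 CPM), against 11 for Prl2c2 alone. Prl3d2 and Prl3d3 had 1 count each in TSCs, which brought the Prl3d sum to 57. Of the other placental cathepsins, Ctsj had 204 and Ctsr 73 counts in TSCs and 0 in the mESC samples, whereas Ctsm, Cts3, Cts6, Cts7 and Cts8 had at most 4 counts in any sample and no such split. With Ctsq, the 8 cathepsin genes summed to 331 counts in TSCs and to 8, 2 and 2 in the mESC samples.

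Tpbpa (ENSMUSG00000033834, chr13:61040053-61043296), the usual marker of the spongiotrophoblast, had 3 counts in TSCs (0.0855 CPM) and 0 in the mESC samples, and its relative Tpbpb had 0 in all samples. The TSC count lies at the floor, and no fold is given.

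Among the labyrinth genes, Gcm1 (ENSMUSG00000023333, chr9:77899765-77913431), the transcription factor that starts branching of the chorion and formation of the syncytium, had 48, 193, 1053 and 14 counts, from 2i−L to TSCs, or 1.44, 5.62, 28.0 and 0.399 CPM. All 4 levels were separated by their intervals, and the lowest was in TSCs. Gcm1 rose in both steps of the medium, 3.89-fold with the JAK inhibitor (interval 2.83 to 5.46) and 4.99-fold more in 2iJ+B−A (interval 4.27 to 5.84). The level in 2iJ+B−A was 70.3 times that in TSCs (interval 41.7 to 129), and that in 2iJ was 14.1 times that in TSCs (interval 8.20 to 26.3).

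Syna (ENSMUSG00000085957, listed in the annotation as Gm52, 1 exon at chr5:135034016-135036041), syncytin A, which fuses cells of the syncytial layer nearest to the maternal blood, ran the other way. It had 15, 7 and 14 counts in the mESC samples and 129 in TSCs, or 0.451, 0.204, 0.373 and 3.67 CPM. The mESC levels overlapped in their intervals (2iJ+B−A over 2iJ 1.83-fold, interval 0.691 to 5.35), and TSCs were 9.86-fold above 2iJ+B−A (interval 5.67 to 18.5). Synb (listed as D930020E02Rik), the syncytin of the adjoining syncytial layer, had 12, 20, 101 and 10 counts. Synb was 4.62-fold higher in 2iJ+B−A than in 2iJ (interval 2.84 to 7.88) and 9.44-fold higher there than in TSCs (interval 4.93 to 20.3). It thus peaked in 2iJ+B−A like Gcm1 and unlike Syna. Unlike those of Gcm1, its other levels were not separated (TSC over 2iJ 0.489-fold, interval 0.204 to 1.095, and 2iJ over 2i−L 1.61-fold, interval 0.752 to 3.62).

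Esx1 (ENSMUSG00000023443, chrX:133649936-133656622), an X-linked homeobox factor needed for the normal labyrinth, had 89, 88, 2735 and 444 counts, or 2.68, 2.56, 72.8 and 12.6 CPM. The JAK inhibitor made no difference that counting error could separate (0.958-fold, interval 0.705 to 1.30). In 2iJ+B−A the level was 28.4-fold that in 2iJ (interval 23.0 to 35.5), rank 2 of 14263 genes behind Hand1. TSCs lay between, 4.93-fold above 2iJ (interval 3.92 to 6.28) and 5.76-fold below 2iJ+B−A (interval 5.21 to 6.38).

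Pparg (ENSMUSG00000000440, chr6:115311239-115440419), a nuclear receptor required for terminal trophoblast differentiation and labyrinth vessels, had 11, 18, 271 and 274 counts, or 0.331, 0.524, 7.21 and 7.80 CPM. It formed a low pair and a high pair of samples. Pparg was 13.8-fold higher in 2iJ+B−A than in 2iJ (interval 8.54 to 23.6), rank 27 of 14263. The 2iJ+B−A and TSC levels were not separated by counting error (1.08-fold, interval 0.911 to 1.29), and neither were 2i−L and 2iJ (1.58-fold, interval 0.709 to 3.71).

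Ovol2 (ENSMUSG00000037279, chr2:144130911-144157882), a zinc finger factor of epithelia needed for the labyrinth, had the smallest step from 2iJ to 2iJ+B−A of the 5 transcription factors. It had 78, 109, 218 and 243 counts, or 2.35, 3.17, 5.80 and 6.92 CPM. That step was 1.83-fold (interval 1.45 to 2.32), which did not reach 2-fold, and TSCs were 1.19-fold above 2iJ+B−A (interval 0.989 to 1.44). The gene overlaps an antisense gene, 1700108N11Rik, and the counts without regard to strand were 66, 94, 189 and 198.

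Per kilobase of exon, which allows genes to be set side by side, the order of levels in 2iJ+B−A was Hand1 (51.8 CPM per kb), Esx1 (36.7), Gcm1 (13.8), Pparg (3.64), Ovol2 (2.75) and Syna (0.184). In TSCs Hand1 stood at 192 CPM per kb, and Esx1 followed at 6.37. Next came Pparg at 3.93, Ovol2 at 3.28, Prl3d1 at 1.84, Syna at 1.81 and Ctsq at 0.889 CPM per kb. Gcm1, the third in 2iJ+B−A, was ninth in TSCs at 0.196 CPM per kb, above Tpbpa (0.0623) and below Prl2c2 (0.369). Hand1 was thus the leading gene in both, 1.41 times the next gene in 2iJ+B−A and 30.1 times the next in TSCs.

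**Figure D2:**
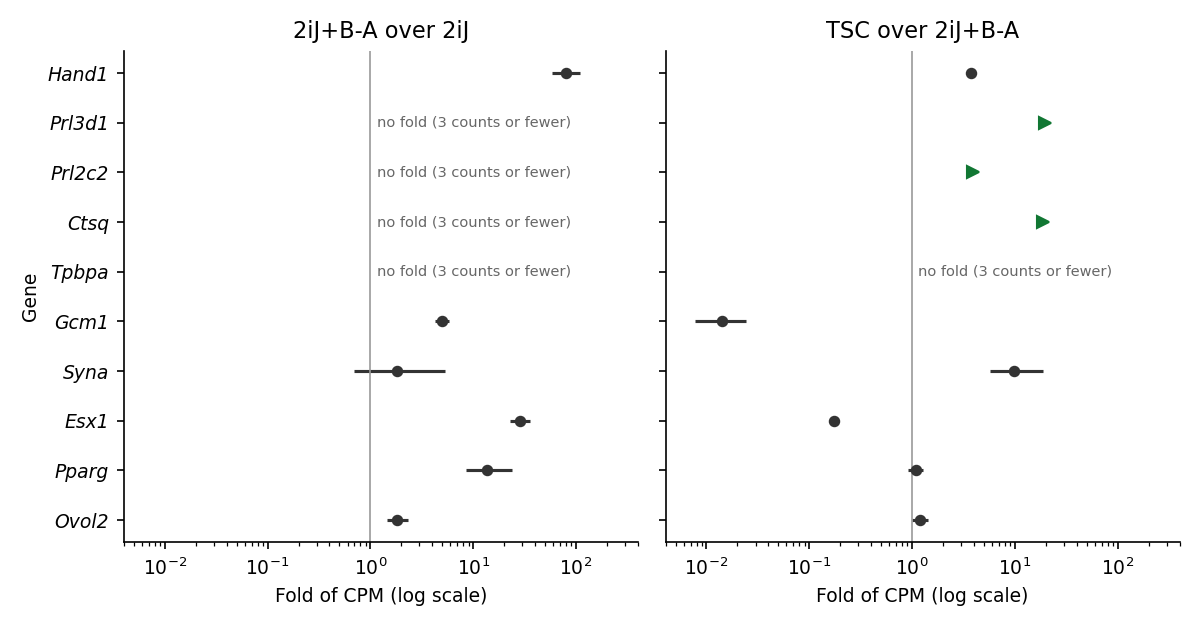
Fold of CPM (log axis) for the 10 placental lineage genes in 2iJ+B−A over 2iJ (left) and TSC over 2iJ+B−A (right), with exact 95% intervals as bars (counting error only) and triangles for lower bounds where the denominator had 0 counts. Hand1, Esx1, Pparg and Gcm1 lie past 4-fold on the left, and on the right Gcm1 and Esx1 fall below 1 while Hand1 and Syna lie above it.

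With the JAK inhibitor alone (2iJ against 2i−L), Gcm1 was the only one of the 10 genes past 2-fold, and 0 were lower, where 1.23% of all genes were higher and 0.918% lower. Its log2 ratio of 1.66 ranked 9 of 14263 and did not reach 4-fold, which 0.021% of all genes did upward.

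Against 2iJ+B−A, TSCs were higher past 2-fold in 4 of the 10 genes (Hand1, Prl3d1, Ctsq and Syna) and lower in 2 (Esx1 and Gcm1), where 16.4% of all genes were higher and 16.2% lower. Prl3d1, Ctsq and Syna passed the filter through TSCs alone. They had to be higher there, in this comparison and in the one against 2iJ. Past 4-fold on the scale with the 0.5 CPM pseudocount, which understates the change of low genes, 2 were higher (Prl3d1 and Syna), as were 5.55% of all genes. Pparg and Ovol2 lay within 2-fold. Against 2iJ, TSCs were higher in 7 of the 10 genes and lower in 1, Gcm1, where 19.4% of all genes were higher and 17.6% lower, and 5 of the 7 were past 4-fold, as were 7.66% of all genes. The call of Ovol2 lay at the threshold (log2 ratio 1.01) and was lost with the unstranded count (0.93) or a pseudocount of 1 CPM (0.92), each of which left 6 genes higher. The comparisons share samples (2iJ+B−A stands in 2 of them, as does TSC, and 2iJ in 3), so they do not bear on each other independently. Of the 828 genes higher in 2iJ+B−A than in 2iJ, 306 were lower in TSCs than in 2iJ+B−A, as Esx1 and Gcm1 were, 227 were higher, as Hand1 was, and 295 were within 2-fold, as Pparg was.

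**Figure D3:**
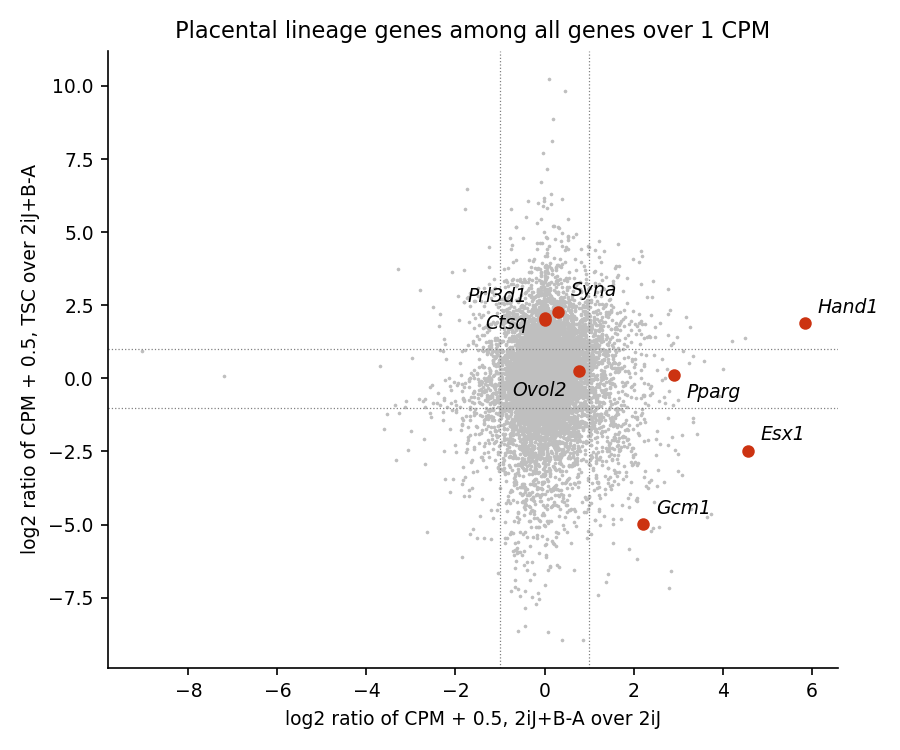
Log2 ratio of CPM + 0.5 in 2iJ+B−A over 2iJ (horizontal) against TSC over 2iJ+B−A (vertical) for the 14263 genes with at least 1 CPM in a sample (grey) and the 8 placental lineage genes among them (red), with dotted lines at 2-fold. Both axes use the 2iJ+B−A sample. Hand1 and Esx1 lie farthest to the right, at 5.84 and 4.58, and Gcm1 lowest of the 8, at -4.99.

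The other genes of each compartment were read from lists, which share samples and filter with the 10 genes. Of 22 labyrinth and syncytiotrophoblast genes, 12 were higher and 1 lower in 2iJ+B−A than in 2iJ, and the median log2 ratio was 1.07. In this comparison 5.81% of all genes were higher and 3.17% lower, which stands beside each list count given for it. Dlx3, a homeobox gene required for the labyrinth, stood at 1.08 CPM before and 18.5 CPM after the addition (TSCs 28.3 CPM), a 17.2-fold step (interval 12.3 to 24.6). Rhox6, an X-linked homeobox gene of trophoblast, went from 14.2 to 127 CPM and was at 245 CPM in TSCs. Cebpa, a C/EBP transcription factor, was 9.36-fold higher in 2iJ+B−A (11.2 against 1.19 CPM), and the gap junction gene Gjb2 5.73-fold higher (21.0 against 3.67 CPM). The lower gene was Slc16a3, a monocarboxylate transporter of the syncytium, which fell from 50.5 to 14.0 CPM and stood at 189 CPM in the TSCs. Between TSCs and 2iJ+B−A, 6 of the 22 were higher in TSCs and 5 lower, where 16.4% and 16.2% of all genes were. Itga4, an integrin needed for chorion and allantois to fuse, was named after its values were seen. It had 0, 14, 240 and 27 counts and, like Gcm1 and Synb, was highest in 2iJ+B−A. Its counts on the opposite strand were 29, 63, 61 and 13, and without regard to strand 19, 54, 231 and 26. The size of its step thus depends on the strand counted.

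Of 14 spongiotrophoblast and glycogen cell genes, 7 passed the filter, and 3 were higher and 0 lower in 2iJ+B−A than in 2iJ. Phlda2, an imprinted gene that restrains placental growth, climbed from 9.84 to 157 CPM, as against 103 CPM in TSCs. Ascl2, an imprinted bHLH factor that maintains spongiotrophoblast precursors, went from 2.42 to 22.7 CPM and stood at 13.3 CPM in TSCs. The kinase gene Nrk climbed from 26.8 to 136 CPM, close to its 119 CPM in TSCs. The prolactin-family genes of this layer were scarce everywhere: Prl3a1 and Prl7b1 had 0 counts in all samples, Prl5a1, Prl6a1 and Prl8a8 at most 1, and Prl8a9 reached 14 counts in TSCs.

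Of 20 listed giant cell genes, 19 were matched and 9 passed the filter. In 2iJ+B−A against 2iJ, 1 was higher (Plat, the tissue plasminogen activator, 4.18 against 1.34 CPM) and 0 were lower. In TSCs 8 were higher than in 2iJ+B−A and 0 lower, where 16.4% and 16.2% of all genes were. Of the 9, 7 passed the filter through TSCs alone. Prl7a1 had 188 and Prl2a1 48 counts in TSCs and 0 elsewhere, and Serpinb9e, a serine protease inhibitor, had 3, 0 and 6 counts in the mESC samples and 705 in TSCs (20.1 CPM). Prl4a1 and Prl7a2 had 0 counts in every sample, and Prl3b1, placental lactogen II, at most 1. In 2iJ+B−A, 13 of the 19 genes had 0 counts, as against 5 in TSCs.

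**Figure D4:**
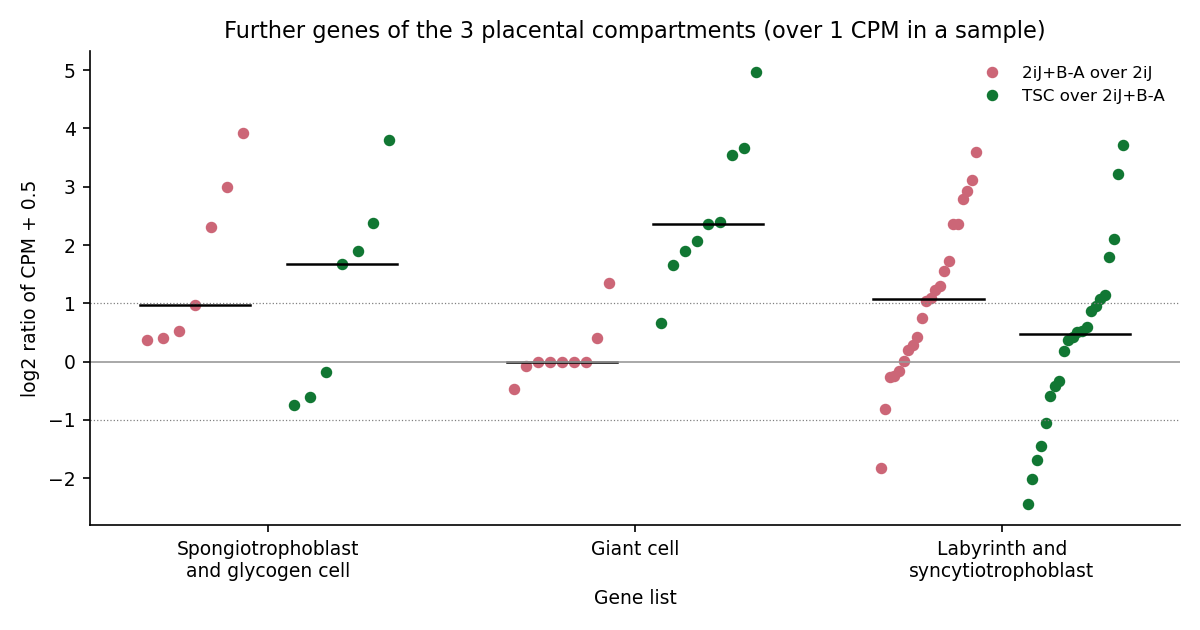
Log2 ratio of CPM + 0.5 for the listed genes of 3 placental compartments that reached 1 CPM in a sample, in 2iJ+B−A over 2iJ (pink) and TSC over 2iJ+B−A (green), with 1 point per gene, bars at the medians and dotted lines at 2-fold. The medians in 2iJ+B−A over 2iJ are 0.97 for spongiotrophoblast, 0.00 for giant cell and 1.07 for labyrinth genes, and in TSC over 2iJ+B−A 1.67, 2.37 and 0.47. Over all matched genes, including those under 1 CPM, the latter are 0.04, 0.08 and 0.47, since genes that pass the filter through TSCs alone had to be higher there.

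Hand1 acts as a dimer with other bHLH proteins, the E proteins, whereas Id proteins bind E proteins without binding DNA, and Mdfi (I-mfa) inhibits the bHLH factor Ascl2. Of 10 such partners and rivals, 4 were higher in 2iJ+B−A than in 2iJ (Ascl2 and Id1, Id2 and Id3) and 1, the E protein gene Tcf4, was lower (26.2 against 56.2 CPM). Id1 went from 8.01 to 91.6 CPM and was at 24.4 CPM in TSCs, while Id2 climbed from 20.5 to 166 CPM and was higher still, at 446 CPM, in TSCs. Id4, by contrast, stood at 14.9 CPM without and 20.9 CPM with the addition, and at 0.570 CPM in TSCs. The E protein genes Tcf3 and Tcf12 stayed within 2-fold between 2iJ and 2iJ+B−A, at 140 and 116 CPM for Tcf3 and at 59.0 and 63.5 CPM for Tcf12. Mdfi was at 3.55, 4.87 and 27.4 CPM. Hand2, the close relative of Hand1, had 5, 7, 16 and 10 counts.

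Genes whose profile over the 4 samples was nearest were found for the 3 members that reached 10 CPM, by Euclidean distance of centred log2(CPM + 0.5) among 10266 genes. Nearest to Hand1 were Irx4 (distance 1.54), Nxf7 (1.71) and Epn3 (2.42), and Irx4 was at 0.301, 0.291, 17.4 and 45.8 CPM. Esx1 had the neighbours Id1 (0.830), Gata2 (1.13) and Peg10 (1.35), of which Gata2 was at 9.92, 23.1, 236 and 84.3 CPM. Gcm1 had Ccnd2 (0.803), Fam189a2 (0.833) and Gna14 (0.909), and Ccnd2 was at 2.53, 5.18, 23.1 and 0.826 CPM. The profiles of the 3 members thus kept apart by the TSC sample, which was the highest for the Hand1 group, lower than 2iJ+B−A for the Esx1 group and the lowest for the Gcm1 group. With 4 points these distances are descriptions.

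Hand1, Esx1 and the other genes above are not expressed in trophoblast alone, and markers of other cell types were read in the same samples. Of 14 genes of extraembryonic mesoderm and amnion, 8 were higher in 2iJ+B−A than in 2iJ and 0 lower. The 14 summed, in the sample order used above, to 253, 243, 666 and 1138 CPM. Most of these sums came from 2 genes, named after their values were seen. Ahnak was at 85.3, 104, 321 and 1025 CPM, so the TSC sum was mostly Ahnak. Tbx3, also among the pluripotency markers, was at 147, 113, 247 and 17.1 CPM. From 2iJ over 2iJ+B−A to TSCs, Tbx20 stood at 1.19, 8.92 and 31.2 CPM and Pmp22 at 10.1, 53.2 and 4.10 CPM. Foxf1, named after its values were seen, had 1, 2, 137 and 59 counts, and Tdo2 had 0 counts in 2iJ, 2iJ+B−A and TSCs. Of 10 primitive endoderm genes 4 were higher and 0 lower, with sums of 51.7, 59.0, 100.1 and 58.8 CPM, Ttr at 0 in all samples and Lama1 at 40.8, 39.2, 52.4 and 2.62 CPM. The 4 higher genes, named after their values were seen, were Gata6 (0.757 CPM in 2iJ and 6.97 in 2iJ+B−A, 9.21-fold), Sox17 (5.68-fold), Pdgfra (4.16-fold) and Gata4 (2.32-fold). Of 8 primitive streak and mesoderm genes only 2 passed the filter, T and Eomes, and both were lower in 2iJ+B−A. The 8 summed to 17.1, 15.3, 5.22 and 183 CPM, the last mostly Eomes. Gsc (19, 1, 37 and 17 counts) rose from 2iJ to 2iJ+B−A but did not pass the filter. Mixl1, Lhx1 and Tbx6 were not separated there by counting error, and Mesp1 and Msgn1 had at most 4 counts in any sample. Apart from Eomes, these were named after their values were seen. Fibroblast markers summed to 48.1, 41.1, 31.0 and 8.54 CPM. Of the 6 that passed the filter, 0 were called higher in 2iJ+B−A and 1, Col1a1, lower. Pdgfrb rose 2.025-fold (interval 1.673 to 2.459) but missed the call with the pseudocount (log2 ratio 0.944). Lum (0, 3, 21 and 0 counts) and Twist2 (3, 2, 23 and 26) also rose there, but did not pass the filter. Short of the call, Col3a1 and Thy1 went up and Col1a2, Postn and Dcn down. These genes were named after their values were seen. Fap had 0 counts in the mESC samples, and Dcn and Lum had 0 in TSCs. Of 11 trophoblast stem cell markers 5 were higher and 1 lower in 2iJ+B−A, with sums of 991, 958, 1612 and 3996 CPM. Among them Cdx2 was at 2.62, 6.70, 33.6 and 45.1 CPM, and Krt18 at 80.8, 105, 521 and 1395 CPM. From 2iJ to 2iJ+B−A the sum rose through Krt18 and Krt8 (134 to 553 CPM). The rest are named after their values were seen. Gata3 and Tead4 were also higher, and Eomes was the lower gene. Within 2-fold, Esrrb (476 to 302 CPM), Tfap2c (142 to 113 CPM) and Fgfr2 (49.7 to 26.1 CPM) went down. Ets2 went from 18.5 to 20.9 CPM, and Elf5 stayed at 5 counts or fewer. The part of these cell types in the levels of Hand1, Esx1, Gcm1 and Pparg was not tested. Of 8 genes used by all cells, 0 were past 2-fold between 2iJ and 2iJ+B−A.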

How the data were processed

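The 4 RNA-seq libraries, each the only one of its condition that was read here, were read as gene counts. The authors selected polyadenylated RNA, made strand-specific libraries, read pairs of 126 bases, trimmed them at a quality of 20 with TrimGalore and cutadapt, and mapped them with STAR 2.4.2a to NCBIM37. The deposited values are counts, whole numbers of read pairs per gene without normalization and without the ComBat adjustment of the paper. Read pairs that map to several places (6.72% to 7.01%) are not counted, which affects near-identical genes. The annotation release is not given in the sources used here.

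Counts of the reverse strand, 29.1 to 32.1 times those of the forward strand, were used. Read pairs not assigned to a gene were left out, and 82.2% to 83.6% of those listed were on genes. Of 37620 identifiers, 37205 were in the GENCODE annotation of NCBIM37, and Syna and Synb were matched through RefSeq synonyms. CPM used TMM factors (0.969 to 1.03) from edgeR 4.0.16 in R 4.3.3. Intervals are exact 95% Poisson or Clopper-Pearson intervals of counts. Log2 ratios had a pseudocount of 0.5 CPM, and genes under 1 CPM in all samples were left out of the shares of all genes. A fold against 0 counts was set against a floor of 3 counts in that library. Folds are ratios of CPM without the pseudocount. Without replicates no model could be fitted and no test was made.

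The genes and lists were chosen with earlier results of these data known. Listed genes were named when at least 10 CPM in a sample and past 4-fold in 2iJ+B−A over 2iJ or past 16-fold in TSC over 2iJ+B−A, up to 4 per list, and copies of the 10 genes whatever their value. Other listed genes were named where they complete a count, a family or a list, or make up much of a sum. These were named after their values were seen, as were Itga4 and Foxf1. Alternatives were the unstranded count, DESeq2 1.42.0 size factors, library size alone, pseudocounts of 0.1 and 1 CPM, a floor of 10 counts, folds of 1.5 and 4, no filter on low values and sums over gene copies or relatives. Copies were searched with BLAST+ 2.17.0 (95% identity, 50 bases). Other steps ran in Python 3.11.15 (pandas 2.3.3, scipy 1.17.1, numpy 2.4.6), and plots were drawn with matplotlib 3.10.9.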

Additional observations from a re-analysis of the deposited data

How the results depend on the processing

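No paired analysis was possible because 1 sample of each condition was read. Of 72 counts of genes recomputed under the alternatives, 70 stayed within 1.5 times. With 4-fold in place of 2-fold, 0 of the 10 genes were higher in 2iJ than in 2i−L, in place of 1, and 2 were higher in TSCs than in 2iJ+B−A, in place of 4, since fewer genes pass a larger fold. Of 120 log2 ratios, 0 changed sign and 104 stayed within the counting interval. The other 16 moved with the pseudocount, such as Hand1 in 2iJ+B−A over 2iJ, at 6.20 with 0.1 CPM and 5.50 with 1 CPM, and Pparg, at 3.55 and 2.43. Summed with its copies Prl2c2 had 124 counts in TSCs, and Ctsq had 331 summed with 7 other cathepsin genes, which are not copies of its sequence. Depth limits the genes with 0 counts, for which levels under about 0.08 CPM could not be seen. Variation between cultures cannot be measured from these 4 samples.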
